A study of Mus musculus with 4 samples.

Results

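The enzymes of purine de novo synthesis were described in T cells labelled wild type (WT) or Mthfd2 knockout (KO). The 10 members were the rows for Ppat, Gart, Pfas, Paics, Adsl, Atic, Impdh1, Impdh2, Gmps and Prps1 among 31748 gene symbols, taken by name because purine synthesis consumes formate from the folate route in which Mthfd2 acts. All 10 rows were found, and all 10 passed the filter on low counts. Between 26259 and 40937 reads fell on them per library, which was between 0.185% and 0.279% of a library.

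Each library was labelled as CD4+ T cells of the spleen of 8-week-old mice with the transgenic T cell receptor TEa, and both genotypes (TEaWT and TEaMthfd2 KO) shared that transgene. Positive magnetic selection gave the T cells, which were then kept for 3 days with mitomycin-treated antigen-presenting spleen cells of F1 (BALB/c x C57BL/6) mice, so RNA of the presenting cells could also be sampled. The study had 2 WT and 2 KO libraries, and the comparison asks which transcripts differ when Mthfd2, a mitochondrial folate enzyme, is lost from responding T cells. How Mthfd2 was disrupted, and whether the replicates are separate mice or cultures, is not given in the sources used here. The p-values therefore reflect only how far these 4 libraries scatter, and that scatter may be technical.

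Purines are built on ribose. Prps1 makes phosphoribosyl pyrophosphate (PRPP), Ppat commits it to purines, and Gart, Pfas, Paics, Adsl and Atic complete the ring to inosine monophosphate (IMP). Gart and Atic each add a carbon carried by formyl folate, the form into which formate is built. Impdh1 or Impdh2 and then Gmps turn IMP into guanosine monophosphate (GMP), and adenylosuccinate synthetase with Adsl turns it into adenosine monophosphate (AMP). Dividing lymphocytes depend on this route, and inhibitors of IMP dehydrogenase are used to suppress the immune response to grafts.

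Total counts ranged from 14191401 to 15955863 per library. Mthfd2 itself was present in all libraries, at 280 and 281 CPM (read counts relative to library size, scaled by TMM factors) in WT and 222 and 252 CPM in KO libraries, and its difference did not pass (log2 fold change of KO over WT -0.24 ± 0.14 SE, edgeR adjusted p = 0.324). The counts therefore do not check the genotype, and the directions of KO over WT rest on the labels. Cd8a stood at between 3.10 and 4.00 times the count of Cd4, against the CD4+ label. Of the marker genes tested, 3 of 5 for T cells rose, while 4 of 6 for B cells, 4 of 4 for MHC class II, 2 of 4 for erythroid cells and 1 of 3 for plasma cells fell, and 0 of 3 myeloid, 0 of 3 dendritic and 0 of 2 NK markers passed (each of these with 1 at an unadjusted p under 0.05, and by DESeq2 1, 0 and 0 called). The calls of these markers, like every call over all genes, were lost when either KO library was left out. With upper quartile factors 3 T cell, 2 B cell, 1 MHC class II, 0 erythroid and 0 plasma cell markers passed, and limma-voom called 0 erythroid and 0 plasma cell markers. The B cell markers summed to 1136 and 699 CPM in WT and to 394 and 346 CPM in KO libraries, and B cells also make purines. Csf1r, Itgam, Cd14 and Clec9a had at most 6 counts in any library. WT replicate 1 stood apart from the other libraries, with the proliferation marker Mki67 at 103 CPM against 704 CPM in WT replicate 2 and 1225 and 1374 CPM in KO libraries. Fewer cells of a type and less RNA per cell cannot be told apart in such bulk samples, and what the mix of cells contributes to the values below was not tested.

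Some of the sequences behind these rows are shared with other genes, which bears on what their counts can show. Impdh2 (chromosome 9, 108560286 to 108565584, plus strand, 14 exons in transcript 201) has a processed, intronless copy, Impdh2-ps, on chromosome 8 (100030558 to 100032102). All coordinates are from the GENCODE annotation of GRCm38 and are counted from 1. Over the 1542 bases that encode the protein, the gene and its copy were identical at 1538 (99.7%), with the longest unbroken identical stretch at 611 bases. The 60 coding bases with the most differences (bases 832 to 891, counted from the first base of the start codon) are printed with the differing bases in capitals, T882C and A891G in the order gene, position, copy:
Impdh2: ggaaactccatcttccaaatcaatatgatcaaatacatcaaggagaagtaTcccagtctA
Impdh2-ps: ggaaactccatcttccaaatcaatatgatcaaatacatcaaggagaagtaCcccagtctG

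Prps1 (chromosome X, 140456613 to 140476140, plus strand) has a similar relative, Prps1l3 on chromosome 12 (57230412 to 57239882), which matched it at 924 of 954 coding bases (96.9%). Here the 60 bases with the most differences were coding bases 16 to 75, with C33G, C57A, C73T and T75G in capitals:
Prps1: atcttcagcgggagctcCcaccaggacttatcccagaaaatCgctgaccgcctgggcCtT
Prps1l3: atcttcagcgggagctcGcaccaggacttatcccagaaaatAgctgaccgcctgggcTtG

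Of all 50-base words in the coding sequences, 80.3% of those of Impdh2 also occurred in transcripts of other genes, and the share was 21.3% for Prps1, 16.4% for Gmps, 13.6% for Gart, 5.38% for Paics and 1.33% for Atic. Ppat, Pfas, Adsl and Impdh1 shared 0%. The shared words of Gart lay on the opposite strand, in the antisense gene Gm15964. Ppat (chromosome 5, 76913249 to 76951578, minus strand) and Paics (chromosome 5, 76951307 to 76967509, plus strand) are neighbours that are read in opposite directions, and their first exons overlap over 272 bases (76951307 to 76951578). Without a stated strand setting, reads of that overlap cannot be told apart.

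Of the 10 enzymes, 0 passed the test between KO and WT libraries (edgeR quasi-likelihood test, Benjamini-Hochberg adjusted p under 0.05), against 3.95% of the 12752 genes tested. At an unadjusted p under 0.05 there was 1, Adsl, against 25.5% of all genes. DESeq2 and limma-voom also called 0, with 2 and 3 members at an unadjusted p under 0.05. The fitted log2 fold change was negative for 9 members and positive for Paics alone, with a median of -0.32, beside a median of -0.0026 and 50.2% negative values over all genes tested. Both KO libraries lay below both WT libraries for 4 members, Prps1, Gart, Adsl and Impdh1, beside 30.1% of all genes. Both KO libraries lay above both WT libraries for 1, Paics (29.8% of all genes), and the groups overlapped for 5 (40.1% of all genes).

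**Figure D1:**
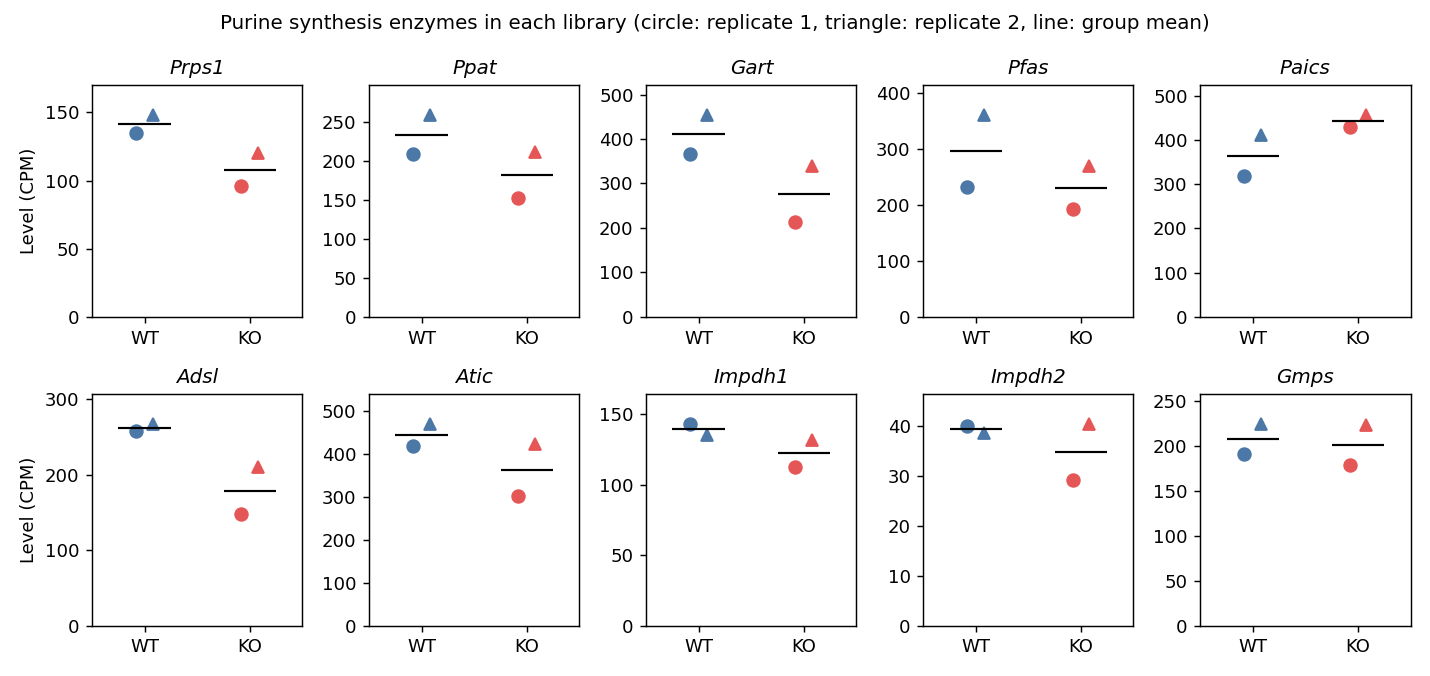
Level of each purine synthesis enzyme in CPM (vertical axis, from 0) in WT and KO libraries, with a circle for replicate 1, a triangle for replicate 2 and a line at the group mean. KO replicate 1 is the lowest library for 9 of 10 members, and Paics is the member with both KO libraries on top.

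At the entry to the pathway, Prps1 stood at 135 and 148 CPM in WT and 96.0 and 120 CPM in KO replicates 1 and 2. The groups did not overlap, but the difference did not pass (log2 fold change -0.39 ± 0.17 SE, n = 2 each, adjusted p = 0.215). With the counts of Prps1l3 added, the sum was 244 and 247 CPM in WT and 176 and 210 CPM in KO libraries, with a log2 fold change of -0.35 ± 0.15 (adjusted p = 0.209). Ppat, the amidotransferase that commits PRPP to purines, stood at 209 and 259 CPM in WT and 153 and 212 CPM in KO libraries. Its groups overlapped, since KO replicate 2 lay above WT replicate 1 (-0.36 ± 0.20, adjusted p = 0.316).

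Of the 6 enzymes that take PRPP to IMP, Gart and Adsl had the lowest fold changes of the 10 members and Paics the highest. Gart (chromosome 16, 91621186 to 91646952, minus strand), an enzyme of several steps that uses formyl folate, had 367 and 454 CPM in WT and 213 and 340 CPM in KO libraries. Its mean went from 410 ± 61.1 CPM to 277 ± 89.8 CPM (SD, n = 2 each), with both KO libraries below both WT libraries. The log2 fold change was -0.57 ± 0.24 (SE; 95% interval -1.14 to 0.01) and did not pass (adjusted p = 0.200). Adsl (chromosome 15, 80948490 to 80970946, plus strand), the lyase that serves both the route to IMP and the step to AMP, had 258 and 267 CPM in WT and 148 and 210 CPM in KO libraries. The WT libraries of Adsl lay close together and both KO libraries lay below them. Its log2 fold change of -0.55 ± 0.19 had a 95% interval that did not reach 0 (-1.01 to -0.10), and its adjusted p was 0.139.

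Paics, which acts after Pfas and before Adsl, went the other way. It had 318 and 412 CPM in WT and 430 and 456 CPM in KO libraries, so both KO libraries lay above both WT libraries. The log2 fold change was 0.28 ± 0.17 (95% interval -0.12 to 0.68) and did not pass (adjusted p = 0.337). Without WT replicate 1 it was 0.11 (adjusted p = 0.773) and without WT replicate 2 it was 0.48 (adjusted p = 0.0911). The ratio of Paics to its overlapping neighbour Ppat compares both within a library. For each Ppat count there were 1.52 and 1.59 Paics counts in WT replicates 1 and 2, and 2.80 and 2.15 in KO replicates 1 and 2. Paics was singled out after its values were seen, so this ratio is a description with no test. Paics made up 13.8% and 14.9% of the counts of the 10 members in WT, against 23.2% and 18.8% in KO libraries.

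Pfas (chromosome 11, 68985697 to 69008460, minus strand), a glutamine-using synthase that acts earlier than Paics, had 232 and 360 CPM in WT and 193 and 268 CPM in KO libraries. Its groups overlapped, and the gap between the WT libraries was the widest among the members (log2 fold change -0.36 ± 0.25, adjusted p = 0.413). Atic (chromosome 1, 71557150 to 71579631, plus strand), which closes the ring with the second formyl carbon, had 418 and 469 CPM in WT and 302 and 423 CPM in KO libraries. These groups also overlapped (-0.29 ± 0.19, adjusted p = 0.381). The members that use formyl folate, Gart and Atic, were both among the 9 members with negative values, none of which passed.

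**Figure D2:**
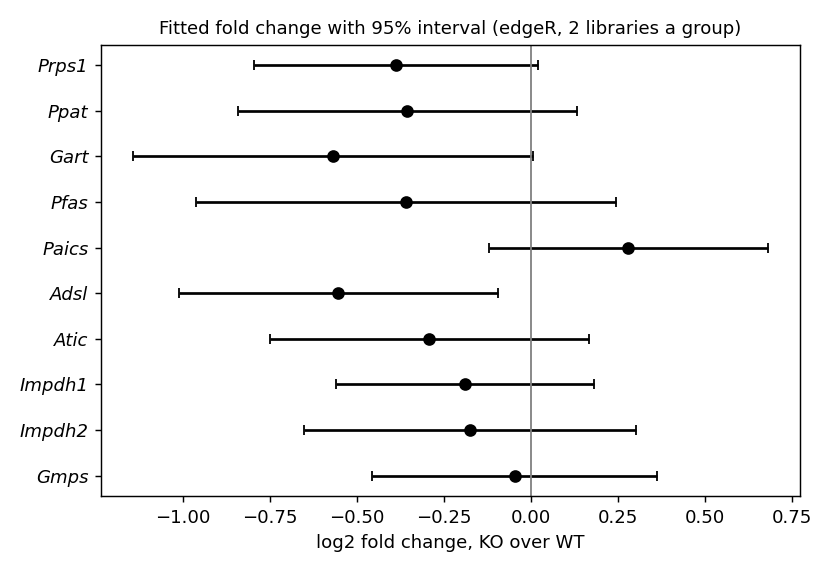
Fitted log2 fold change of each member, KO over WT (horizontal axis), with its 95% interval from edgeR's quasi-likelihood fit. The interval lies wholly below 0 for Adsl and includes 0 for the other 9 members.

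On the branch to GMP, the values lay closer to 0. Gmps (chromosome 3, 63976106 to 64022579, plus strand), GMP synthetase, had 191 and 224 CPM in WT and 179 and 223 CPM in KO libraries, with a log2 fold change of -0.05 (95% interval -0.46 to 0.36, adjusted p = 0.892). Changes beyond 0.729-fold or 1.28-fold thus lay outside its interval. Impdh1 (chromosome 6, 29200434 to 29216364, minus strand) had 143 and 136 CPM in WT and 113 and 132 CPM in KO libraries. Its groups did not overlap, but WT replicate 2 and KO replicate 2 lay close together (-0.19 ± 0.16, adjusted p = 0.482).

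The row of Impdh2 had only 656 and 571 counts in WT and 413 and 564 counts in KO libraries. Its level was 40.1 and 38.6 CPM in WT and 29.2 and 40.4 CPM in KO libraries (log2 fold change -0.18, 95% interval -0.65 to 0.30, adjusted p = 0.621). Most counts of Impdh2 and its copy, whose sequences are printed above, stood on the row of the copy. Impdh2-ps had 8034 and 7852 counts in WT and 6190 and 7324 counts in KO libraries, between 12.2 and 15.0 times the counts of Impdh2. Impdh2 held 7.15% of the sum of both rows in KO replicate 2 (95% exact binomial interval 6.59% to 7.74%, counting error only) and between 6.25% and 7.55% in the other libraries.

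Which of the rows stands for the enzyme decides which IMP dehydrogenase appears more abundant. By its own row, Impdh2 held between 20.6% and 23.5% of the counts of Impdh1 plus Impdh2. With the row of the copy added, which was done after the counts were seen, it held between 78.8% and 81.1%. Summed, Impdh2 and its copy stood at 531 and 569 CPM in WT and 467 and 565 CPM in KO libraries, and the groups overlapped. The difference did not pass by either count (summed log2 fold change -0.09, 95% interval -0.46 to 0.28, adjusted p = 0.749). Impdh1 matched Impdh2 at 73.3% of the coding bases of Impdh2, with at most 29 identical bases in a row, and shared none of its 50-base words. How many reads on the copy's row came from Impdh2 was not tested.

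**Figure D3:**
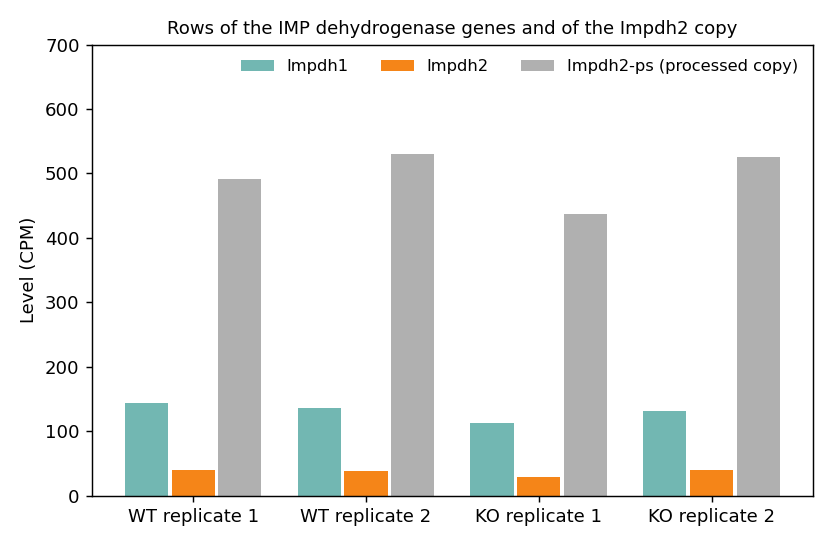
Level in CPM (vertical axis, from 0) of Impdh1, Impdh2 and the processed copy Impdh2-ps in each library. In every library the bar of the copy, between 438 and 531 CPM, is the tallest and that of Impdh2, between 29.2 and 40.4 CPM, the lowest.

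Levels of different genes were compared as CPM per kilobase of the transcript with the longest coding sequence. Averaged over the 4 libraries, Paics (163) and Atic (142) were highest, followed by Gart at 97.7 CPM per kilobase. Prps1 (63.5), Adsl (59.4), Impdh1 (53.0), Ppat (52.4) and Pfas (41.3) followed, and the ranges over libraries of neighbours in that order overlapped. Gmps (25.2) and Impdh2 by its own row (19.9) were lowest, with ranges of 22.1 to 27.7 and 15.7 to 21.8 CPM per kilobase that stayed below those of the other 8 members. The order depends on the length used: over all annotated exons Atic came to 50.5 CPM per kilobase and to the place after Prps1. For Gmps both lengths were 8105 bases, of which 2079 are coding, so its low place depends on that length.

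Between libraries of one group, most members differed in the same direction. KO replicate 2 lay above KO replicate 1 for 10 of 10 members, by 0.09 (Paics) to 0.67 (Gart) on the log2 scale, and KO replicate 1 was the lowest of all libraries for 9. WT replicate 2 lay above WT replicate 1 for 8 of 10, by up to 0.63 (Pfas). The share of all genes with these orders was not computed. Genes of S phase and mitosis also summed higher in KO replicate 2 than in KO replicate 1 (8953 against 7695 CPM). B cell markers summed lower there (346 against 394 CPM). The order of the libraries was thus not shown to be particular to the members. Summed over the members, the level was 2312 and 2767 CPM in WT and 1857 and 2425 CPM in KO libraries, so KO replicate 2 lay between the WT libraries. The values of most members therefore depended on which KO library was used. Without KO replicate 1 the median log2 fold change of the members was -0.11 and 3 members were positive, and without KO replicate 2 it was -0.55 with 1 positive. Without WT replicate 2 it was -0.20 with 2 positive, and both KO libraries lay below WT replicate 1 for 4 members (41.7% of all genes tested). Without WT replicate 1, the library that stood apart, the median was -0.41, and both KO libraries lay below WT replicate 2 for 8 members (39.4% of all genes tested). The choice of WT library moved Pfas the most, to -0.64 without replicate 1 (adjusted p = 0.157) and to -0.004 without replicate 2 (adjusted p = 0.992). Gart stood at -0.71 and -0.40 (adjusted p = 0.184 and 0.312), Ppat at -0.50 and -0.19 (0.251 and 0.591), and Prps1 at -0.45 and -0.31 (0.237 and 0.293). Adsl moved least of these with the choice of WT library, with -0.58 and -0.52. The choice of KO library moved Adsl and Gart further. Adsl stood at -0.32 without KO replicate 1 and at -0.82 without KO replicate 2, and Gart at -0.27 and -0.94.

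The start sites were searched for short motifs on both strands in RefSeq windows of 300 bases (assembly GRCm38.p6, 250 before the start site to 50 after). Windows were found for 9 of 10 members, with 2 for Impdh1, and none was matched for Pfas. CACGTG, the E-box letters that MYC and related factors recognise, is shown because Myc passed the test among the regulators described below. It occurred in the windows of 3 members and in 7.15% of all 32851 windows. It is in capitals in 30 bases of each, at chr5:76951087-76951116 (plus strand, 203 bases before the start site of Paics), chr1:71557137-71557166 (plus strand, 7 bases before that of Atic) and chr9:108560314-108560343 (plus strand, 110 bases before that of Impdh2):
Paics: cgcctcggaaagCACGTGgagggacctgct
Atic: ggacctcggggtCACGTGgggtcgacacgc
Impdh2: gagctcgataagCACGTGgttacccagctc

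The fold changes of Paics, Atic and Impdh2 did not pass, and a link between CACGTG and the fold changes of the members was not tested. GGGCGG occurred for 9 members (35.7% of all windows), CCAAT for 5 (37.4% of all windows) and TGACGTCA for 0 (1.79% of all windows). A match is a description of letters, not of binding.

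Of the other genes of purine metabolism, 28 of 32 passed the filter. Of these 28, 1 rose and 0 fell, beside 3.95% of all genes tested called in either direction. Their median log2 fold change was -0.02. The gene that rose was Xdh, xanthine dehydrogenase, which breaks purines down to uric acid. It had 29.1 and 44.5 CPM in WT and 117 and 132 CPM in KO libraries, 3.39-fold more by the fit (log2 fold change 1.76 ± 0.23, adjusted p = 0.0297). Both KO libraries lay far above both WT libraries. The log2 fold change of Xdh was 1.49 without WT replicate 1 and 2.10 without WT replicate 2. It was 1.85 without KO replicate 1 and 1.67 without KO replicate 2. The call of Xdh, like every call over all genes, needed both KO libraries.

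Salvage and interconversion, the group of Xdh, had 18 genes tested, 13 of them positive, beside 50.2% negative values over all genes tested. Nt5e, the surface enzyme that frees adenosine from AMP, had 6.72 and 8.38 CPM in WT and 15.6 and 14.1 CPM in KO libraries, a log2 fold change of 0.97 ± 0.26 (adjusted p = 0.0830). Hprt, which recycles hypoxanthine and guanine, had 195 and 208 CPM in WT and 267 and 267 CPM in KO libraries, with a log2 fold change of 0.41 ± 0.14 (adjusted p = 0.129). The KO libraries of Hprt lay close together and above both WT libraries, but the difference did not pass. Mtap, which releases adenine from methylthioadenosine, had 161 CPM in each WT library against 78.3 and 116 CPM in KO libraries, a log2 fold change of -0.73 ± 0.21 (adjusted p = 0.0971). Of the partners of Prps1, Prpsap2, which binds PRPP synthetase, stood at -0.66 (adjusted p = 0.116), Prps1l3 at -0.29 (adjusted p = 0.294) and Prps2 at -0.15 (adjusted p = 0.609), and 0 of 4 passed (0 by DESeq2, 1 at an unadjusted p under 0.05). In the step to AMP, Adss, adenylosuccinate synthetase, had 314 and 328 CPM in WT and 263 and 300 CPM in KO libraries, with a log2 fold change of -0.19 (adjusted p = 0.449), and its muscle-type relative Adssl1 had at most 95 counts (1.63, adjusted p = 0.118). Of the 4 nucleotide kinases, 0 passed (0 by DESeq2, 0 at an unadjusted p under 0.05) and all 4 were negative, led by Guk1 (-0.33, adjusted p = 0.220) and Nme1 (-0.36, adjusted p = 0.264).

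**Figure D4:**
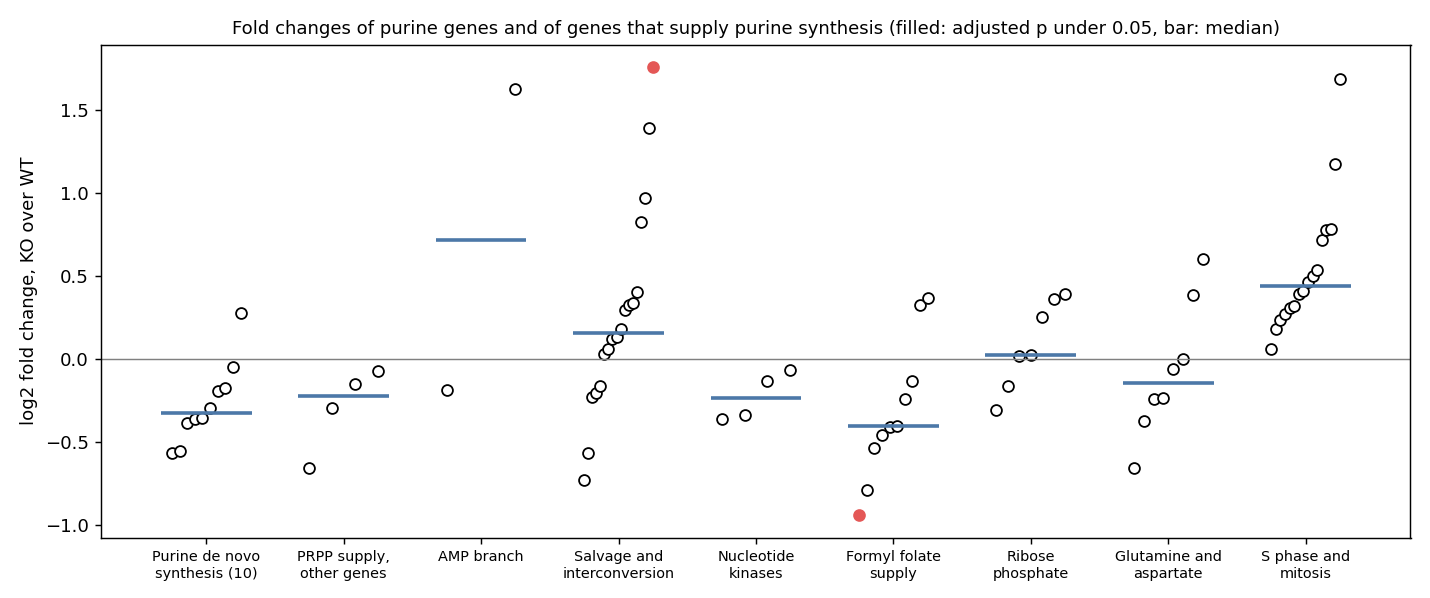
Log2 fold change, KO over WT (vertical axis), of each gene tested in the purine groups and in the groups that supply or accompany purine synthesis, with a bar at each median and filled points for genes past the threshold. The filled points are Xdh at 1.76 and Slc25a32 at -0.94, and all 10 de novo enzymes are open.

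Among genes that supply the pathway, 1 of 10 of formyl folate supply fell, beside 3.95% of all genes tested called in either direction. The gene was Slc25a32, which carries folate into mitochondria (-0.94 ± 0.19, adjusted p = 0.0480). It did not pass with upper quartile factors (adjusted p = 0.0512). Its log2 fold change was -0.85 without WT replicate 1, -0.76 without KO replicate 1 and -1.14 without KO replicate 2. The call of Slc25a32 was lost without WT replicate 1 and, like every call over all genes, without either KO library. Shmt1, the cytosolic serine hydroxymethyltransferase, followed at -0.79 (adjusted p = 0.0901). Of 7 genes of ribose phosphate supply and 8 of glutamine and aspartate supply, 0 passed. In those groups Pgd stood at 0.39 (adjusted p = 0.153), Tkt at 0.36 (adjusted p = 0.224), Got1 at -0.66 (adjusted p = 0.0610) and Slc1a5, a glutamine transporter, at -0.37 (adjusted p = 0.158). At an unadjusted p under 0.05 there were 1 of 7 and 2 of 8, and DESeq2 called 0 and 1. Of 9 regulators, 1 fell: Myc, with 635 and 427 CPM in WT and 164 and 215 CPM in KO libraries, with a log2 fold change of -1.49 ± 0.24 (adjusted p = 0.0397). The log2 fold change of Myc was -1.296 without KO replicate 1 and -1.695 without KO replicate 2. Its call, like every call over all genes, needed both KO libraries. Hspa8, a chaperone, was next at -0.59 (adjusted p = 0.0851).

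Genes of S phase and mitosis, which accompany purine demand in dividing cells, were set beside the members. All 16 had positive fold changes and 0 passed, with 0 at an unadjusted p under 0.05 and 0 called by DESeq2. Their median was 0.44 where that of the purine enzymes was -0.32. They were led by Mki67 (1.69, adjusted p = 0.212) and Top2a (1.18, adjusted p = 0.260). Without WT replicate 1, in which these genes were low, their median was 0.10 with 12 positive, while that of the purine enzymes was -0.41 with 1 positive. Against WT replicate 1 alone, their median was 0.87 with 16 positive, while that of the purine enzymes was -0.20 with 2 positive. The difference between these groups of genes was not tested.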

How the data were processed

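RNA of 4 libraries (2 WT, 2 KO) was sequenced after removal of ribosomal RNA, per the labels' protocols. The authors deposited 1 table of raw read counts per gene symbol for each library. The submitters' processing notes name Subread 2.0.1, featureCounts, mm10, R 4.0.4 and DESeq2 1.30.1, and the aligner, annotation release, strand setting and handling of multi-mapped reads were not given in the sources used here. Groups were taken from the sample titles, and 0 columns were left unused.

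Low genes were removed with filterByExpr of edgeR 4.0.16 under R 4.3.3, at a minimum count of 10 and a minimum total of 15. Libraries were scaled by TMM, and KO was compared with WT over all 12752 kept genes by the quasi-likelihood test with Benjamini-Hochberg adjustment, without covariates. Intervals are 95% from the fitted standard error and its degrees of freedom. The fit was tested on simulated counts. The precision is set by 2 libraries a group, with a common biological coefficient of variation of 21.4%. Alternatives were other scalings and filters, DESeq2 1.42.0, limma-voom (limma 3.58.1), a replicate block, each library left out, and copies summed (chosen after seeing the data). Copies were found as exact shared words of 50 bases and by pairwise alignment of GENCODE transcripts.

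The members and gene lists were chosen with earlier results of these data known. The text names all members, Mthfd2, relatives of members, and, per list, each gene called and the 2 of lowest p, with Cd4, Cd8a and markers where a result turned on them. Hprt, Mtap, Csf1r, Itgam, Cd14 and Clec9a were named after their values were seen.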

Additional observations from a re-analysis of the deposited data

How the results depend on the processing

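The number of purine synthesis enzymes called was 0 in each of the 13 alternatives, and none of their 130 fold changes under an alternative passed. The lowest adjusted p was 0.0591, for Gart with the replicate block. Signs were kept except for Gmps, which ranged from -0.21 to 0.11 when a library was left out (0.08 without WT replicate 2 and 0.11 without KO replicate 1), and Impdh2, which ranged from -0.43 to 0.045 (positive without KO replicate 1). Calls among the other purine genes numbered 1, against 2 without a filter (Xdh and Mtap), 3 by DESeq2 (Xdh, Mtap and Nt5e) and between 0 and 5 when a library was left out. Calls over all genes numbered 504, against 1419 without a filter, 1633 by DESeq2, 889 with the replicate block and between 0 and 2559 when a library was left out. The 0 came without either KO library, with 1605 (without KO replicate 1) and 2161 (without KO replicate 2) genes at an unadjusted p under 0.05. The replicate numbers are not stated to pair the libraries. Deviations of same-numbered libraries correlated at 0.04 over 12752 genes. With 1 such deviation per genotype, this value cannot decide whether the libraries are paired. The replicate block changed no call of a member, with 5 members at an unadjusted p under 0.05 against 1. A group with 1 library left was assumed to vary like the other group. With 2 libraries a group, the 95% intervals of the members reach from 0.452-fold (Gart) to 1.60-fold (Paics), and the smallest size called over all genes was 0.71 on the log2 scale.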
